A study of Mus musculus with 47 samples.

Results

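The transcripts described are Cebpb and Cebpd, which encode the transcription factors C/EBP beta and C/EBP delta, and Mt1 and Mt2, which encode the metal-binding proteins metallothionein 1 and 2. They were chosen by name as genes that answer acutely to glucocorticoids, by matching Ensembl IDs to mouse symbols, and are 4 of the 13500 genes in the table. Earlier results of these data were known when the choice was made. The samples are RNA-seq libraries of the tibialis anterior, a fast muscle of the lower leg, of female C57BL/6 mice fed ad libitum, at ZT0 (lights on) and ZT12 (lights off). The 47 libraries formed 12 groups of 4, except for 3 in 1 group. Wild-type mice were sham-operated (WT sham, 9 to 12 weeks of age), adrenalectomized (WT ADX, 12 to 17 weeks, with 3 libraries at ZT0), or adrenalectomized and injected intraperitoneally at ZT12 for 10 days with 0.5 mg/kg adrenaline (WT ADX+ADR, 13 to 14 weeks) or 5 mg/kg of the synthetic glucocorticoid dexamethasone (WT ADX+DEX, 11 to 14 weeks). RE-RE mice carried Bmal1(stopFL/stopFL) with Syt10-Cre(-/tg) and Hsa-Cre(-/tg), so that the clock gene Bmal1 is switched off except where Cre acts, in Syt10-expressing brain cells and in skeletal muscle fibres. These were sham-operated (9 to 14 weeks) or adrenalectomized (8 to 18 weeks). The glands were taken out 2 days apart, drinking saline of 0.9% with 1% glucose replaced lost salt, and the series text gives a wait of 2 weeks between treatment and collection. It describes that wait as recovery from surgery, so the time from the last injection to collection is uncertain. As injections were given at ZT12, ZT0 and ZT12 libraries of injected groups may also differ in hours since injection. In these groups that cannot be told apart from time of day. No group injected with vehicle was analysed here, and sham and operated wild-type animals differed in age. The labels do not say which libraries came from separate animals, so p-values measure the spread between these libraries.

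C/EBP beta and delta bind CCAAT-type sites as dimers and are made within minutes to hours of hormone, cytokine and cAMP signals in fat, liver and muscle. Metallothioneins are small cysteine-rich proteins that bind zinc and copper, and their transcription is driven by zinc through the factor MTF-1 and by glucocorticoids through the glucocorticoid receptor. In mice the adrenal glucocorticoid corticosterone peaks around lights off, and adrenalectomy removes both it and circulating adrenaline.

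The genomic position of each gene is given on GRCm38, the build of the submitters' processing notes. Cebpb (ENSMUSG00000056501) lies on the plus strand of chromosome 2, from 167688915 to 167690418, and Cebpd (ENSMUSG00000071637) on the plus strand of chromosome 16, from 15887286 to 15891031. Mt2 (ENSMUSG00000031762, chromosome 8, 94172664 to 94173568) and Mt1 (ENSMUSG00000031765, chromosome 8, 94179082 to 94180327) are neighbours on the same strand, 5513 bases apart. The upstream sequences are shown because Mt1 and Mt2 followed each other closely over the design and Cebpb did so less. They are the 250 bases before the RefSeq start of each gene (GRCm38.p6, plus strand), matched for 3 of the 4 genes. That of Cebpd is not shown. In Mt2 (chr8:94172368-94172617) and Mt1 (chr8:94178839-94179088), capitals mark the metal response cores TGCACNC and TGCGCNC, the letters bound by MTF-1, on either strand. In Cebpb (chr2:167688665-167688914), capitals mark TGACG, the core of the cAMP response element.
Mt2: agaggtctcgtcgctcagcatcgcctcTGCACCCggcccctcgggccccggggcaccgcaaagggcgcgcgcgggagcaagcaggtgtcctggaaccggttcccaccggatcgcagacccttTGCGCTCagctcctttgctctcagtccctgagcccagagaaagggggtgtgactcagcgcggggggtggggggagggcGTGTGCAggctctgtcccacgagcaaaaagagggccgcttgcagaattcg
Mt1: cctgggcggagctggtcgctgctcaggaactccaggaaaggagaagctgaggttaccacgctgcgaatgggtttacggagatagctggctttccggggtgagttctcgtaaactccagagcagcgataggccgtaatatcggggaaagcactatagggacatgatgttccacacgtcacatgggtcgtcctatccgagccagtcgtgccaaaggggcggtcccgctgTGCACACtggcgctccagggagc
Cebpb: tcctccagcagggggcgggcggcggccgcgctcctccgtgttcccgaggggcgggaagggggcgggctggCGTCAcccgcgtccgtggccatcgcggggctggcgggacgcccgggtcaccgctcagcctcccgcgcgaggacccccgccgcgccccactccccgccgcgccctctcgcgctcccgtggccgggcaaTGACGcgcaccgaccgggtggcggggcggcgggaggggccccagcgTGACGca

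The Mt2 stretch held 3 metal response cores, at -223, -128 and -50, counting back from -1 at the base before the start. At least that many were found in 1.26% of 32851 mouse promoters of the same length. The Mt1 stretch held 1, at -23, as 21.4% of promoters held at least 1. Mt1 has further annotated starts downstream: the 250 bases before the annotated starts at 94179241 and 94179211 each held 5 cores, which 0.082% of promoters reached. The Cebpb stretch held TGACG 3 times, at -180, -53 and -7, and Mt1 held it 1 time, at -77. Of all promoters 17.8% held it at least 1 time, and the share with 3 was not counted. The glucocorticoid response core AGAACA (16.1% of promoters) and the E-box CACGTG (6.02%) were in none of these 3 windows, and the C/EBP-type site TTGCNNAA (9.56%) was in Mt2 only, at -12. A match is a description of letters and not of binding.

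The deposited values are log2 of FPKM (fragments scaled by gene length and by library size) plus 0.01, so that a gene with no signal is listed at 0 FPKM. Cebpb was above 0 in all 47 libraries, whereas Cebpd was listed at 0 in 10, Mt1 in 12 and Mt2 in 24. Depth recovered from the sparsest genes was 16.3 to 35.7 M reads per library. For nearly all other genes the values were not whole reads scaled by depth and length alone. In genes above 0 in every library 10.1% of low values came out whole, where 10% would by chance. In genes listed at 0 in 10 to 29 libraries, as Cebpd, Mt1 and Mt2 were, 18.7% did. Col1a1, a main collagen of connective tissue, was listed at 0 in all 8 WT ADX+DEX libraries and at 135 to 212 FPKM in RE-RE ADX. Further, 7 libraries stood apart in sharing at most 1 exact low value with their group, where the other 40 shared 25 to 103. A 0 is therefore reported as listed at 0 and not as absence, no fold is given against a group listed at 0 throughout, and results that rest on these 7 libraries are also given without them. The 10 muscle fibre markers, among them Acta1 and Ckm, summed to 75625 to 107989 FPKM in every library.

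**Figure D1:**
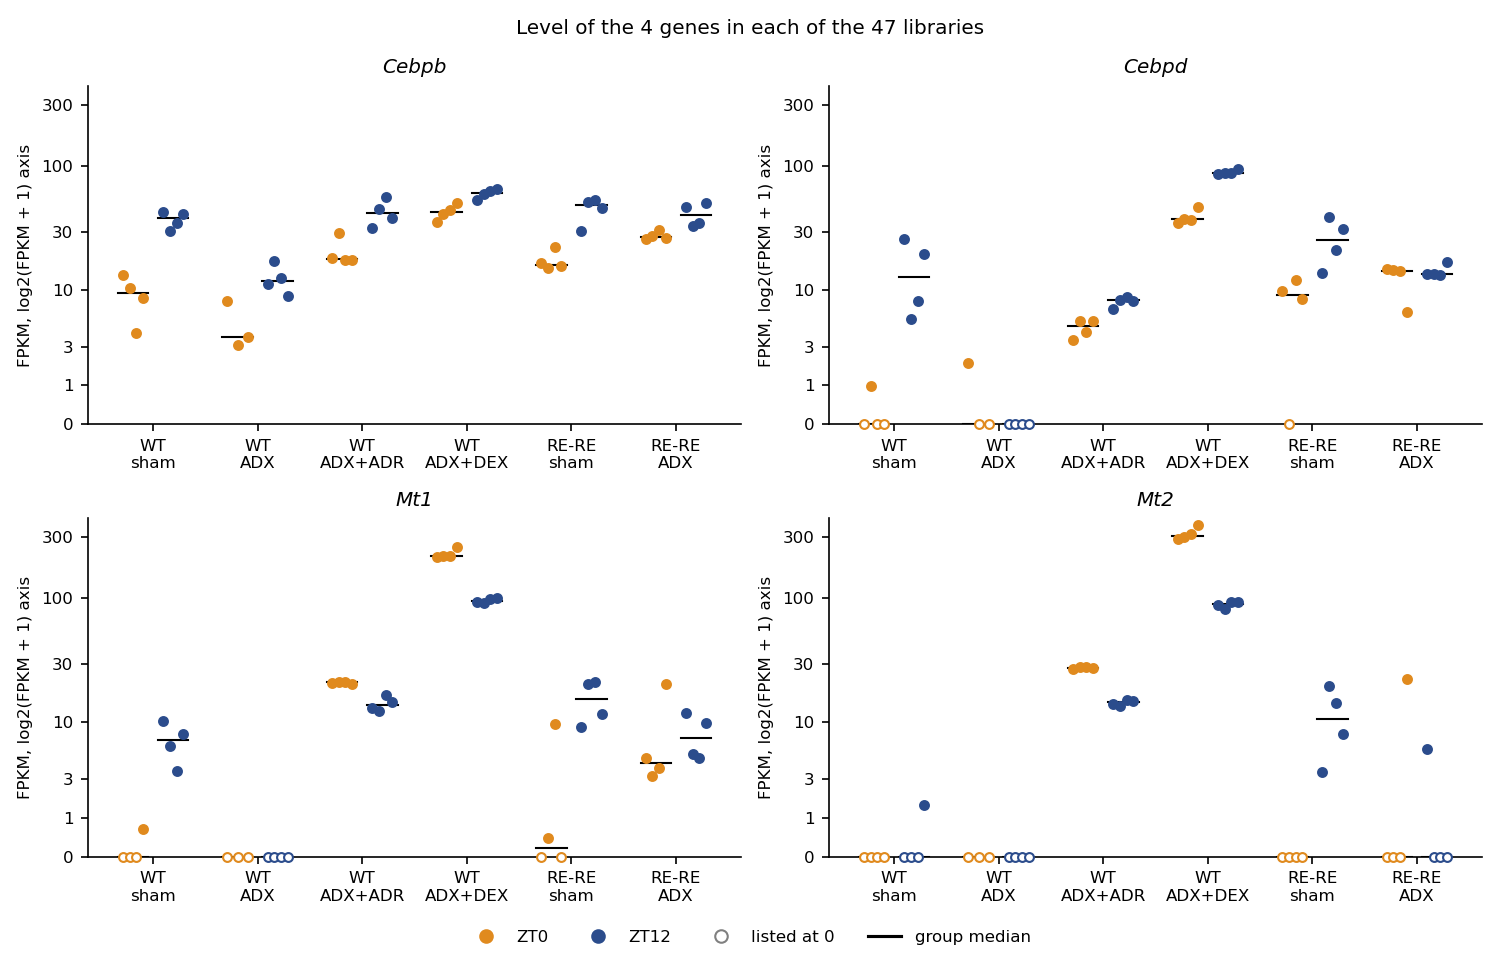
Level of Cebpb, Cebpd, Mt1 and Mt2 in FPKM (y axis, spaced as log2(FPKM + 1)) in each of the 47 libraries, by condition (x axis) and time (colour), with open points for libraries listed at 0 and bars for group medians. Mt1 and Mt2 sat at 0 throughout WT ADX and highest in WT ADX+DEX at ZT0, while Cebpb and Cebpd sat highest in WT ADX+DEX at ZT12.

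Cebpb was the member above 0 in every library. In intact wild-type muscle its level was 13.3, 10.5, 4.1 and 8.45 FPKM at ZT0 and 43.1, 30.7, 35.6 and 41.6 at ZT12. Every ZT12 library lay above every ZT0 library, and the rise of 2.02 ± 0.24 (SE) on the log2(FPKM + 1) scale was the 24th largest of 12000 genes tested (limma across all groups, adjusted p = 5.6e-08). After adrenalectomy the levels were 8.04, 3.11 and 3.76 FPKM at ZT0 and 11.3, 17.6, 12.5 and 8.95 at ZT12. The groups again did not overlap, and Cebpb still rose, by 1.24 ± 0.26 (adjusted p = 0.00167 in limma), but when just these 2 groups were fitted the adjusted p was 0.109. The difference between the time effects, -0.79 ± 0.35, missed the test (limma adjusted p = 0.298).

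In adrenalectomized wild-type mice Cebpb was lower than in sham mice, with the groups apart in the evening only. At ZT12 all 4 WT ADX libraries lay below all 4 WT sham libraries, a fall of 1.53 ± 0.24 in log2 units (limma adjusted p = 8.8e-06). At ZT0 the ranges overlapped, and the fall of 0.75 ± 0.26 passed with an adjusted p of 0.022 in limma but not with age as a covariate (adjusted p = 0.0757) nor without WT ADX replicate 2 (0.171) or replicate 3 (0.111), or WT sham replicate 1 (0.114) or replicate 2 (0.0642). Without the 7 libraries that stood apart it was 0.0617.

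Injected animals had more Cebpb. With adrenaline the libraries read 18.5, 29.7, 17.8 and 17.8 FPKM at ZT0 and 32.3, 45.8, 56.9 and 38.8 at ZT12, and with dexamethasone 36.3, 41.7, 45.2 and 51.0 at ZT0 and 54.0, 59.8, 63.4 and 65.7 at ZT12. Both injected groups lay wholly above WT ADX at each time. The ZT12 level under adrenaline overlapped that of WT sham (difference 0.18 ± 0.24, limma adjusted p = 0.573), with a 95% interval from -0.3 to 0.66. Cebpb rose from ZT0 to ZT12 under adrenaline by 1.02 ± 0.24 (limma adjusted p = 0.00242). Under dexamethasone the difference of 0.48 ± 0.24 missed the test (limma adjusted p = 0.136), although the ranges did not overlap. When just these 2 groups were fitted it passed, with an adjusted p of 0.0144.

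In RE-RE muscle Cebpb was 16.7, 15.3, 22.8 and 16.0 FPKM in sham at ZT0 and 30.5, 52.0, 53.4 and 46.4 at ZT12. After adrenalectomy it was 26.5, 27.9, 31.1 and 27.0 at ZT0 and 47.6, 33.5, 35.6 and 50.7 at ZT12. All libraries of RE-RE sham at ZT0 were above all of WT sham at ZT0 (0.97 ± 0.24, limma adjusted p = 0.00257, or 0.0591 when just this pair of groups was fitted). Adrenalectomy did not move Cebpb past the threshold at either time here: the difference was 0.65 ± 0.24 at ZT0, where the groups did not overlap (limma adjusted p = 0.0887), and -0.11 ± 0.24 at ZT12 (0.826). Without RE-RE sham replicate 3 the ZT0 difference passed, for Cebpb (0.78 ± 0.25, limma adjusted p = 0.0472) and for Cebpd (1.48 ± 0.49, 0.0489). The low evening level that wild-type mice showed after adrenalectomy, 8.95 to 17.6 FPKM, was thus set against 33.5 to 50.7 in adrenalectomized RE-RE mice; that difference between the genotypes was not tested.

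Cebpd, the other C/EBP factor, was listed at 0 in libraries where Cebpb was low. In WT sham it was listed at 0 in 3 ZT0 libraries and at 0.99 FPKM in the other, and at ZT12 it read 26.5, 5.61, 8.09 and 19.9. All ZT12 libraries were above all ZT0 libraries, and the fitted rise of 3.52 ± 0.47 was the 8th largest of 12000 (limma adjusted p = 6.8e-07). In WT ADX it was listed at 0 in 2 of 3 libraries at ZT0, the other reading 2.01, and in all 4 at ZT12. The evening difference from WT sham was called in limma (adjusted p = 2.4e-07), as was the smaller time effect after adrenalectomy (adjusted p = 0.000576).

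Cebpd was far higher with dexamethasone than with adrenaline. Under adrenaline it read 3.54, 5.36, 4.22 and 5.33 FPKM at ZT0 and 6.89, 8.26, 8.63 and 7.99 at ZT12. Under dexamethasone it read 35.7, 38.1, 37.4 and 47.2 at ZT0 and 85.8, 87.1, 87.4 and 94.6 at ZT12, the highest of all groups and with no overlap with any other. The groups were apart at both times, by 2.86 ± 0.47 log2 units at ZT0 (limma adjusted p = 3.7e-06, the 9th largest of 12000) and 3.33 ± 0.47 at ZT12 (3.4e-07, the 6th). From ZT0 to ZT12 the dexamethasone group differed by 1.15 ± 0.47, which missed the test in the model of all groups (limma adjusted p = 0.065) and passed when just these 2 groups were fitted (9.99e-05) or without the 7 libraries that stood apart (0.00535).

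In RE-RE mice Cebpd was nearly always above 0. Sham libraries read 9.79, 0, 12.1 and 8.42 FPKM at ZT0 and 14.0, 39.4, 21.4 and 31.6 at ZT12. Adrenalectomized ones read 14.9, 14.7, 14.5 and 6.41 at ZT0 and 13.7, 13.6, 13.3 and 17.2 at ZT12. The sham animals rose by 2.09 ± 0.47 (limma adjusted p = 0.00217); the lone library at 0 was among the 7 that stood apart, and without them the rise was 1.01 ± 0.35 (limma adjusted p = 0.0853). When just these 2 groups were fitted the adjusted p was 0.171. In the adrenalectomized animals the times overlapped for Cebpd (0.24 ± 0.47, limma adjusted p = 0.891).

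Within libraries Cebpd was below Cebpb except under dexamethasone at ZT12. The ratio of Cebpd to Cebpb in FPKM was 0.152 to 0.3 in the 8 WT ADX+ADR libraries, 0.828 to 0.983 in WT ADX+DEX at ZT0 and 1.38 to 1.59 in WT ADX+DEX at ZT12. In the 10 libraries with Cebpd listed at 0, Cebpb read 3.11 to 17.6 FPKM, the low end of its range.

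**Figure D2:**
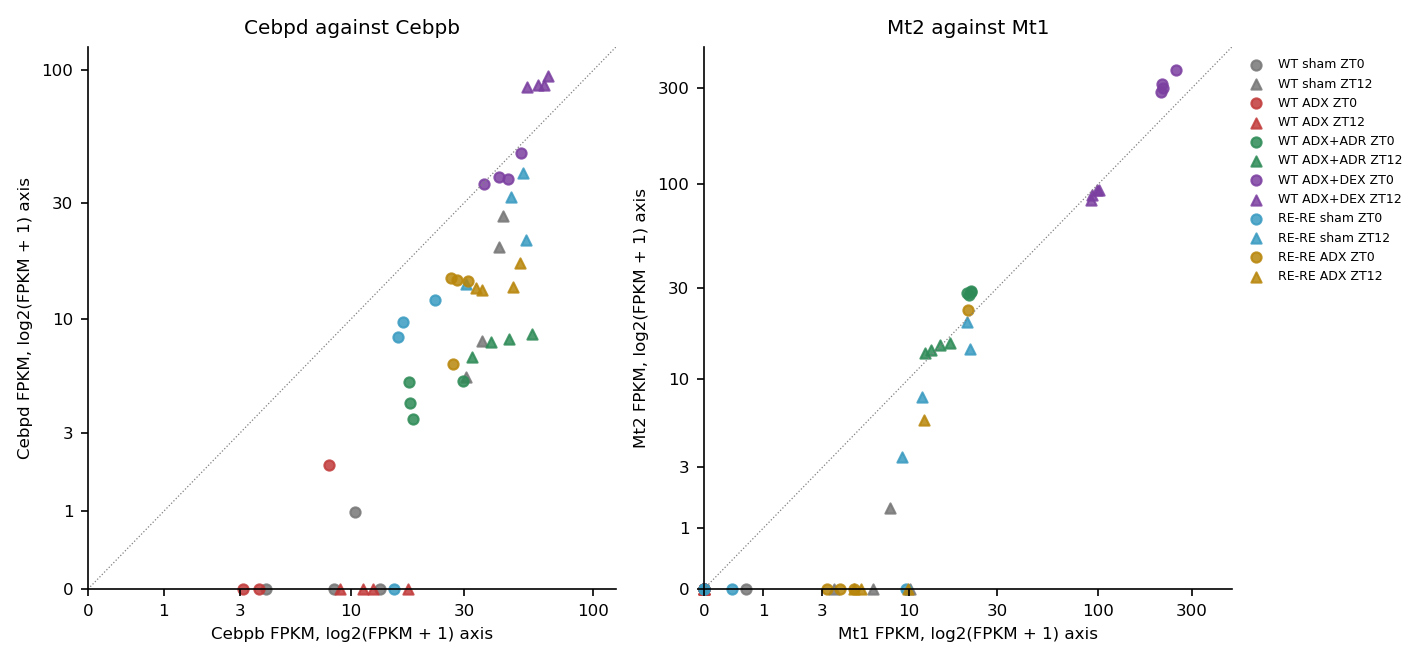
Cebpd against Cebpb (left) and Mt2 against Mt1 (right) in FPKM on axes spaced as log2(FPKM + 1), 1 point per library, with colour for condition, circles for ZT0, triangles for ZT12 and a dotted line of equality. WT ADX+DEX at ZT12 is the group above the line on the left, and on the right Mt2 is at 0 in 24 libraries in which Mt1 ran from 0 to 10.2.

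Mt1, which with Mt2 makes up the widely expressed metallothioneins, ranged from 0 to 249 FPKM over the libraries. In WT sham it was listed at 0 in 3 ZT0 libraries and at 0.636 FPKM in the other, and read 10.2, 6.25, 3.58 and 7.86 at ZT12. All ZT12 libraries were higher, and the fitted rise of 2.74 ± 0.45 was called (limma adjusted p = 1.9e-05). In WT ADX each of the 7 libraries was at 0, so no level was recorded at either time. The evening difference from WT sham was called (limma adjusted p = 7.4e-06). The fitted time effect in WT ADX is 0 by these listings, so its difference from that in WT sham is the WT sham rise alone.

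Under adrenaline Mt1 read 21.1, 21.7, 21.7 and 20.7 FPKM at ZT0 and 13.2, 12.3, 16.8 and 14.9 at ZT12. Under dexamethasone it read 209, 213, 212 and 249 at ZT0 and 92.8, 91.7, 98.8 and 100.3 at ZT12. In both, every ZT12 library lay below every ZT0 library, the reverse of the order in WT sham. Injection was at ZT12, so time of day and hours since injection cannot be told apart here. The fall under dexamethasone was 1.19 ± 0.45 (limma adjusted p = 0.0415). Leaving out any 1 of these 8 libraries ended the call (limma adjusted p 0.0616 to 0.0893), as did an offset of 0.1 FPKM (0.258). Without 1 library the change itself stayed between -1.22 and -1.13. When just the 2 times under dexamethasone were fitted, the fall was called in limma. Under adrenaline the difference was -0.55 ± 0.45 (limma adjusted p = 0.447). When just the 2 times of that condition were fitted it passed (0.00524), but Mt1 varied less at ZT0 there than counting reads alone gives. Dexamethasone exceeded adrenaline by 3.31 ± 0.45 at ZT0 (limma adjusted p = 9.5e-08, the 8th largest of 12000) and 2.67 ± 0.45 at ZT12 (6.6e-06, the 9th).

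In RE-RE sham Mt1 read 0, 0.382, 9.58 and 0 FPKM at ZT0 and 9.12, 20.8, 21.5 and 11.8 at ZT12. After adrenalectomy it read 4.82, 3.23, 3.91 and 20.9 at ZT0 and 12.1, 5.27, 4.8 and 9.86 at ZT12. Sham rose by 3.02 ± 0.45 (limma adjusted p = 6.7e-06), though replicate 3 at ZT0 lay just above the lowest ZT12 library. At ZT0 adrenalectomized RE-RE exceeded RE-RE sham by 1.87 ± 0.45 (limma adjusted p = 0.0117), with overlapping ranges. Without RE-RE ADX replicate 4, at 20.9 FPKM, the difference was 1.34 ± 0.43 (limma adjusted p = 0.0728), without RE-RE sham replicate 1 or replicate 4 it was 1.55 ± 0.47 (0.0821 and 0.0505), and without the libraries that stood apart 1.05 ± 0.52 (0.354).

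Mt2 followed Mt1 under injection and was listed at 0 in most other groups. It was at 0 in all 4 WT sham libraries at ZT0 and in 3 at ZT12, the other reading 1.53 FPKM, and in all 7 WT ADX libraries. Under adrenaline it read 27.4, 28.4, 28.8 and 28.0 at ZT0 and 14.3, 13.8, 15.5 and 15.2 at ZT12. Under dexamethasone it read 288, 301, 314 and 369 at ZT0 and 88.2, 82.7, 93.1 and 93.0 at ZT12. The times did not overlap in either condition. The fall under dexamethasone was 1.82 ± 0.58 (limma adjusted p = 0.0167), the 8th steepest of 12000, and it missed the test with an offset of 0.1 FPKM (0.223). Under adrenaline the difference of -0.9 ± 0.58 missed the test (limma adjusted p = 0.33) and passed when just the 2 times were fitted (8.4e-06) or without the libraries that stood apart (0.000348). In the 2 groups of that smaller fit, Mt2 varied by 2.16% at ZT0 and 5.27% at ZT12 (coefficient of variation). Counting reads alone gives more, 4.99% and 6.91%, at the recovered depth. Dexamethasone exceeded adrenaline by 3.45 ± 0.58 at ZT0 (limma adjusted p = 5.9e-06) and 2.52 ± 0.58 at ZT12 (0.000569). With the deposited offset of 0.01 FPKM the p values for Mt2 were 0.076 and 0.207, that for Mt1 at ZT12 was 0.0575 and that for Cebpd at ZT0 was 0.0701, with differences of like size.

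In RE-RE sham Mt2 was at 0 in all 4 ZT0 libraries and read 3.51, 19.9, 14.5 and 7.89 FPKM at ZT12, with no overlap (limma adjusted p = 6.55e-05). After adrenalectomy it was at 0 in 3 libraries and at 23.05 in the other at ZT0, and at 5.84, 0, 0 and 0 at ZT12. The high ZT0 library was replicate 4, also the highest for Mt1 and the lowest for Cebpd in its group. The evening fall with adrenalectomy was 2.72 ± 0.58 in RE-RE mice (limma adjusted p = 0.00517), the 2nd steepest of 12000, and it missed the test with age as a covariate (0.0579) and when just the groups compared were fitted (0.0799).

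In each of the 12 libraries with Mt1 listed at 0, Mt2 was at 0 too. Mt2 was above 0 in 23 libraries, in which Mt1 was at least 7.86 FPKM. The ratio of Mt2 to Mt1 within a library was 1.38 to 1.48 under dexamethasone at ZT0 and 0.902 to 0.951 at ZT12, and 1.29 to 1.35 against 0.919 to 1.12 under adrenaline. It was 0.385 to 0.957 in RE-RE sham at ZT12. These ratios depend on the gene lengths the authors used, and reads shared by the 2 similar transcripts cannot be assigned with certainty. Under adrenaline at ZT0 the 4 libraries varied by 2.27% for Mt1 and 2.16% for Mt2 (coefficient of variation), less than the 3.94% and 4.99% that counting reads alone gives at the recovered depth.

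**Figure D3:**
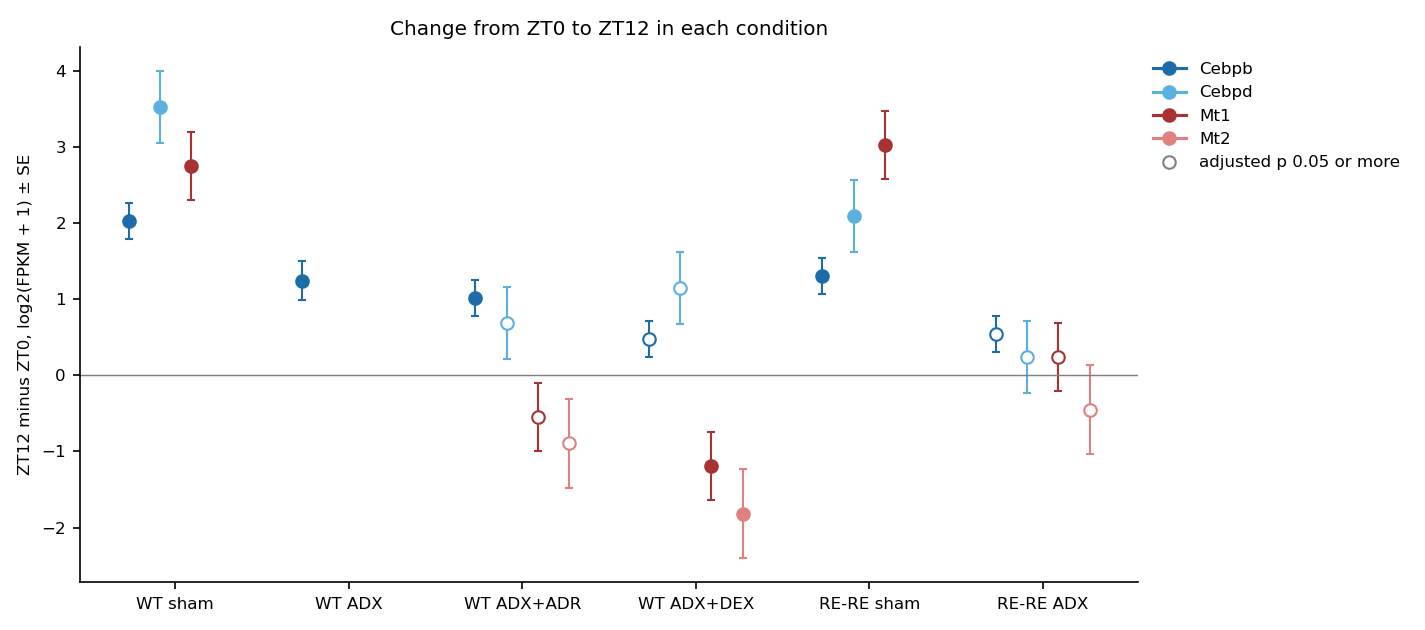
Change from ZT0 to ZT12 (y axis, log2(FPKM + 1) units, mean ± SE from limma) for each gene in each condition (x axis), with open points for adjusted p of 0.05 or more. Values are left out where a group was listed at 0 throughout (Cebpd in WT ADX, Mt1 in WT ADX, Mt2 in WT sham, WT ADX and RE-RE sham), and Mt1 and Mt2 are the points below 0 under adrenaline and dexamethasone.

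Counted over the 4 genes, 3 changed between the times in WT sham, all upward, where 14.2% of all 12000 tested genes rose. After adrenalectomy alone 1 rose (7.04% of all genes), with adrenaline 1 rose (6.59%) and with dexamethasone 2 fell (13.7%). In RE-RE sham all 4 rose (5.91%), and in RE-RE ADX none was called (0.783% of genes in either direction; 1 of the 4 had an unadjusted p under 0.05 in limma). Between WT ADX and WT sham, 1 was lower at ZT0 (19.1% of all genes lower) and 3 at ZT12 (16.8%). Between RE-RE ADX and RE-RE sham, 1 was higher at ZT0 (1.78% of all genes higher) and 1 lower at ZT12 (3.71% lower).

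For the injected groups many of all genes were called, which is the background for these 4. All 4 were higher than in WT ADX with adrenaline at ZT0 (27.2% of genes higher) and ZT12 (28.3%), and with dexamethasone at ZT0 (37%) and ZT12 (34.9%). All 4 were higher with dexamethasone than adrenaline at ZT0 (26.4%), and 3 at ZT12 (22.1%), where Cebpb differed by 0.50 ± 0.24 (limma adjusted p = 0.0859, 0.0395 without WT ADX+ADR replicate 7 and 0.0327 when just this pair of groups was fitted). Genes higher by at least 2 log2 units were few: 0.25% of all genes at ZT0 and 0.133% at ZT12, and Cebpd, Mt1 and Mt2 were among them at both. Against WT sham, adrenaline was higher for 4 at ZT0 (21.4%) and for 1, Mt2, at ZT12 (18.2%), and dexamethasone for 4 at ZT0 (31.7%) and 4 at ZT12 (25.6%). At ZT12 the adrenaline difference of Mt1, 1.01 ± 0.45, had a limma adjusted p of 0.0675, or 0.000819 with age as a covariate and 0.0489 without WT sham replicate 5. The dexamethasone difference of Cebpb there, 0.68 ± 0.24, had an adjusted p of 0.0152, or 0.0543 without WT sham replicate 6 (limma), and that of Cebpd, 2.72 ± 0.47, missed the test with the deposited offset (limma adjusted p = 0.0941).

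RE-RE sham exceeded WT sham for 2, Cebpb and Cebpd, at ZT0 (13.3% of genes higher) and for Mt2 at ZT12 (10.1%). The Cebpd difference of 2.35 ± 0.47 (limma adjusted p = 0.000341) missed the test when just this pair of groups was fitted (0.0733), and was 3.21 ± 0.35 without RE-RE sham replicate 2, the library at 0. With age as a covariate Mt1 was also called, at ZT0 (1.21 ± 0.37, limma adjusted p = 0.0148) and ZT12 (1.55 ± 0.37, 0.00269). For the difference between time effects, 2 of the 4 had a smaller one after wild-type adrenalectomy than after sham surgery (0.942% of genes lower), namely Cebpd and Mt1, the latter with every WT ADX library at 0. In RE-RE, 1 was lower after adrenalectomy, Mt2 (0.0333% of genes lower, limma adjusted p = 0.0481), and Mt1 differed by -2.78 ± 0.63 (0.076, and 1.38e-05 to 0.0497 without RE-RE sham replicate 3 or 5 or RE-RE ADX replicate 2 or 5). The Mt2 call was lost with age as a covariate, with an offset of 0.01 or 0.1 FPKM and with no filter. It was also lost with a replicate block and when just the groups compared were fitted. None was called by limma for adrenaline against WT ADX (4.43% of genes in either direction; 0 at an unadjusted p under 0.05), dexamethasone against WT ADX (16.3%; 3), dexamethasone against adrenaline (13.6%; 0) or RE-RE sham against WT sham (0.333%; 3). When just these 4 groups were fitted, the time effects of Mt1 and Mt2 differed between dexamethasone and adrenaline (limma adjusted p = 0.00109 and 1.26e-05). That fit includes WT ADX+ADR at ZT0, where both genes varied less than counting reads alone gives. Several of these comparisons share groups of libraries, and so are not independent of each other.

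Other genes of the C/EBP family did not share a direction. Cebpg, a partner that lacks an activation domain, was 16.5 to 18.1 FPKM in WT sham at ZT0 and 11.1 to 16.1 at ZT12, and fell with time by 0.36 ± 0.09 (limma adjusted p = 0.00262), opposite to Cebpb. It was highest under dexamethasone at ZT0, 20 to 22.8 FPKM, and 13.2 to 13.4 at ZT12. Ddit3 (CHOP), an inhibitory stress-induced member, was 10 to 15.5 FPKM under dexamethasone at ZT0 and 4.48 to 6.58 at ZT12, a fall of 1.11 ± 0.18 (limma adjusted p = 7.2e-06), and 7.53 to 13.6 over the 8 WT sham libraries. Cebpa, the factor of fat and liver, stayed between 0.445 and 2.61 FPKM in all libraries. Of the 4 tested family genes other than Cebpb and Cebpd, none rose and 1 fell with time in WT sham, where 14.2% of all genes rose and 10.1% fell. Between dexamethasone and adrenaline at ZT0, 2 were higher and 1 lower, where 26.4% of all genes were higher and 23.8% lower.

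Genes of zinc and other metal handling gave no common direction. Of 19 tested besides Mt1 and Mt2, 2 rose and 4 fell with time in WT sham (median change -0.00105, as against 0.01 over all genes), and 4 were higher and 6 lower with dexamethasone than adrenaline at ZT0 (median -0.02, against 0.02 over all genes). Of all genes, 14.2% rose in the first comparison and 26.4% were higher in the second. The shares lower are those given above for the C/EBP family. Mtf1, the zinc sensor, ran from 2.85 to 4.23 FPKM over all 47 libraries, and the zinc exporter gene Slc30a1 from 1.74 to 3.97. The zinc importer gene Slc39a14 did follow the metallothionein pattern under dexamethasone: it was 5.86 to 8.67 FPKM at ZT0 and 2.37 to 2.8 at ZT12, and at most 2.1 in the other conditions. The excess over adrenaline was 1.53 ± 0.09 at ZT0 (limma adjusted p = 1.2e-16). Slc30a2, a zinc transporter of vesicles, was 9.45 ± 0.57 FPKM (SD, n = 4) under dexamethasone and 0.973 ± 0.057 under adrenaline at ZT0, and 3.47 ± 0.24 against 0.613 ± 0.054 at ZT12.

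Established targets of the glucocorticoid receptor were mostly called 1 way in some comparisons and both ways in others. Of 21 tested targets other than these 4 genes, 12 rose and 2 fell with time in WT sham (median 0.66; 14.2% of all genes rose and 10.1% fell). In WT ADX against WT sham at ZT12, 14 were lower and none higher (median -0.7; 16.8% of all genes lower). With dexamethasone against adrenaline, 16 were higher and none lower at ZT0 (median 0.82; 26.4% of all genes higher), and 10 and none at ZT12 (median 0.28; 22.1% higher). Under dexamethasone 5 rose and 7 fell with time (median 0.09; 14% of all genes rose and 13.7% fell). In WT ADX+ADR against WT sham at ZT12, 7 were higher and 4 lower (median 0.15; 18.2% and 22.7% of all genes). Fkbp5, a co-chaperone that limits the receptor, was at 0 in each of the 4 WT sham libraries at ZT0 and of the 7 WT ADX libraries. In WT sham at ZT12 it ran from 0 to 6.81 FPKM. It was 12.1 to 12.3 FPKM under adrenaline at ZT0 and 8.94 to 9.47 at ZT12. In RE-RE ADX it was 1.83 to 10.4 FPKM at ZT0 and 1.5 to 4.73 at ZT12. Under dexamethasone it was 80.6 to 98.9 FPKM at ZT0 and 35.4 to 37.4 at ZT12. Tsc22d3 (GILZ), an anti-inflammatory target, was higher at ZT12 instead under dexamethasone. It was 33 to 42.9 FPKM at ZT0 and 48.1 to 64.9 at ZT12 (0.61 ± 0.12, limma adjusted p = 0.000176). The receptor gene Nr3c1 was lower under dexamethasone than in WT ADX at ZT0, 10.9 to 14.4 against 21.1 to 26.9 FPKM.

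**Figure D4:**
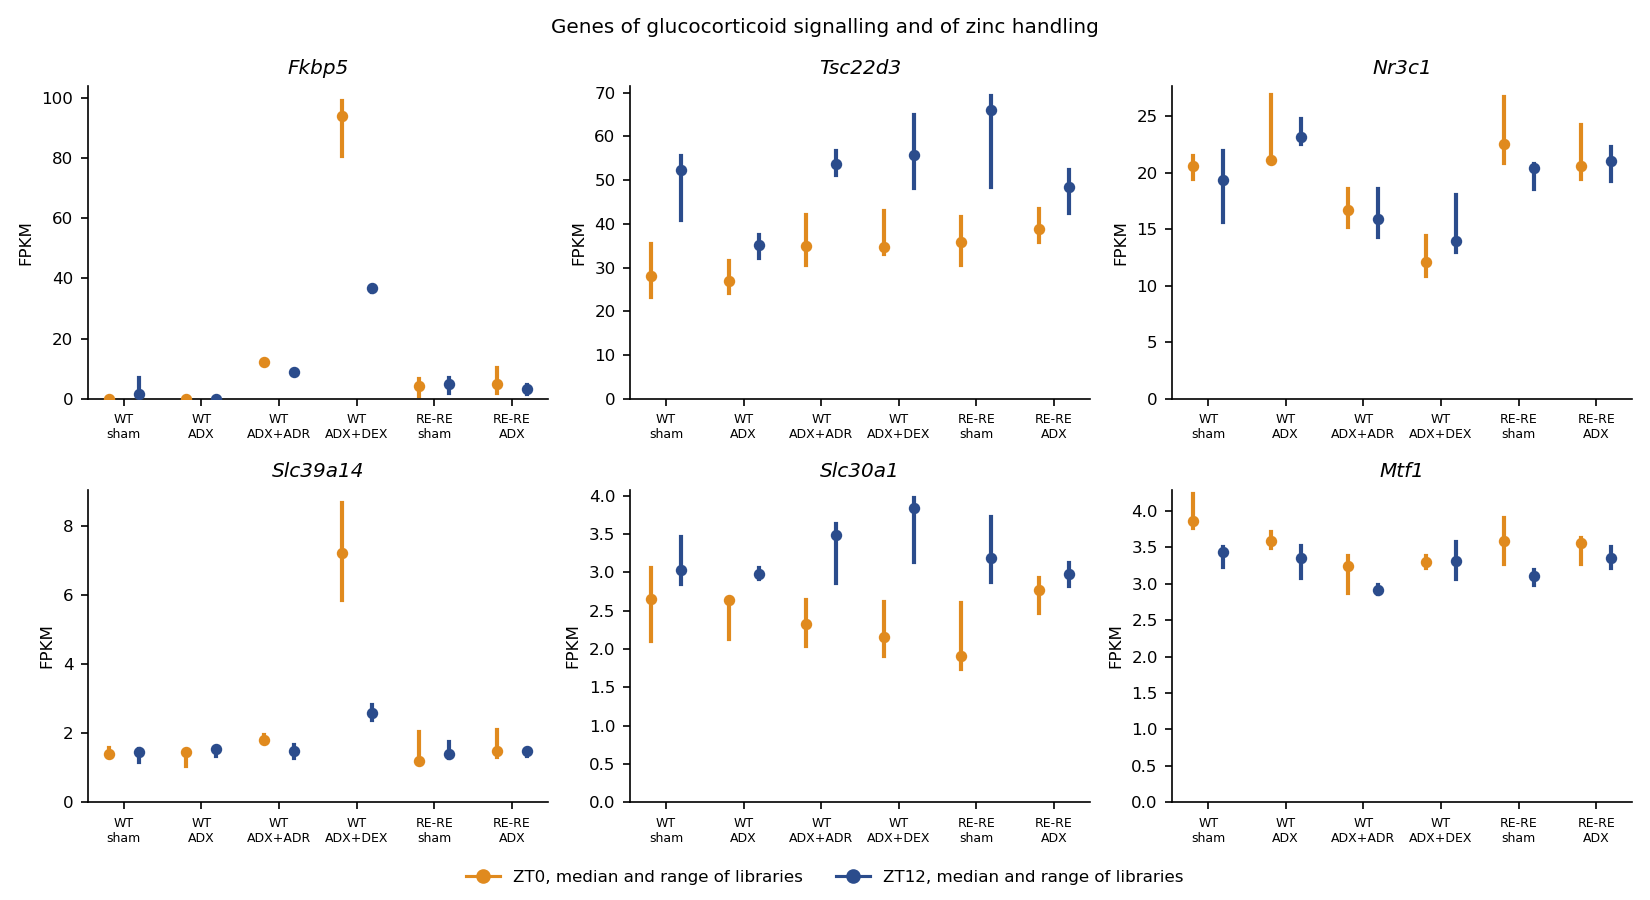
Median (point) and range (bar) of FPKM over the libraries of each group, by condition (x axis) and time (colour), for 3 genes of glucocorticoid signalling (top) and 3 of zinc handling (bottom). Fkbp5 and Slc39a14 are highest under dexamethasone at ZT0, while Tsc22d3 is higher at ZT12 than ZT0 there.

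Lists tied to other inducers of these genes did not share a direction, and the cAMP list was mostly lower with dexamethasone than adrenaline at ZT12. Of 14 acute phase and IL-6 signalling genes, 4 were higher and 7 lower with dexamethasone than adrenaline at ZT0, where 26.4% of all genes were higher and 23.8% lower. Lcn2, a secreted protein that binds bacterial iron carriers, was 126 ± 27.0 against 3.76 ± 0.039 FPKM (SD, n = 4), and Il6ra, the IL-6 receptor, 6.47 ± 1.05 against 0.758 ± 0.039. Of 16 cAMP response and immediate early genes, 3 were higher and 6 lower at ZT0, and 1 higher and 11 lower at ZT12, where 22.1% of all genes were higher and 21.3% lower. The cAMP-induced kinase gene Sik1 read 3.75 ± 0.94 FPKM under dexamethasone and 31.3 ± 3.24 under adrenaline at ZT12. Junb, named from the acute phase list, read 1.76 ± 0.70 and 119 ± 16.5 FPKM there. Of 15 oxidative stress genes, 6 were higher and 2 lower at ZT0, among them Nfe2l2, the master regulator NRF2, with 12.9 ± 1.94 against 8.44 ± 0.46.

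The genes most alike in pattern to each of the 4 over the 12 group means of log2(FPKM + 1) were found by Pearson r, as a description over groups that share controls. For Cebpb they were Asb15 (0.98), Pelp1 (0.97), Ccdc9b (0.97), Sgk1 (0.96) and Mri1 (0.96). Sgk1, a glucocorticoid-induced kinase, had a group median of 85.4 FPKM at its highest, under dexamethasone at ZT12. For Cebpd they included Noc2l (0.94), Fth1 (0.94), Ubl7 (0.94) and Psmc5 (0.94), of which Fth1, the ferritin heavy chain, reached a group median of 1145 FPKM under dexamethasone at ZT12. For Mt1 they were Net1 (0.97), Rps15 (0.97), Ing1 (0.97), Pdcd5-ps (0.97) and Rpl36 (0.96), and for Mt2 Odf3l2 (0.98), Shisa2 (0.95), Usf2 (0.95), Zdhhc16 (0.95) and Zfp189 (0.95). All 10 of the last were highest under dexamethasone at ZT0, and Odf3l2 was listed at 0 in 24 libraries, as Mt2 was, and reached a median of 83.0 FPKM. Over the 47 libraries r of these genes with the respective gene ran from 0.800 to 0.957.

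Within groups, with the group mean removed, the 4 genes did not all vary together. Of 6 pairs, 3 passed a two-sided permutation test within groups on Pearson's r (100000 resamples, Benjamini-Hochberg over the pairs). Mt1 and Mt2 had r = 0.56 (permutation adjusted p = 0.00669) and Spearman's rho = 0.65 (6e-05). Cebpb and Cebpd had r = 0.44 (permutation adjusted p = 0.00669) and rho = 0.56 (0.00024), and Cebpb and Mt1 r = 0.31 (permutation adjusted p = 0.0146) and rho = 0.43 (0.00612). Without the 2 libraries farthest from the median on the x axis, these r were 0.62, 0.39 and 0.37. Cebpb and Mt2 had r = 0.16 (permutation adjusted p = 0.177) and rho = 0.34 (0.0125). Cebpd and Mt1 had r = 0.17 and rho = 0.11, and Cebpd and Mt2 r = -0.08 and rho = 0.07, with adjusted p of at least 0.638 in the permutation tests. In the 23 libraries with both metallothioneins above 0, r was 0.93 (permutation adjusted p = 0.0027). Cebpb and Mt2 passed in the 23 libraries with neither at 0 (r = 0.58, permutation adjusted p = 0.00648). On the deposited scale with its offset of 0.01 FPKM, no pair passed on r and 4 passed on rho.

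Markers of other cells also differed between the groups. The 8 endothelial markers summed to 89.6 to 93.8 FPKM under dexamethasone and 126 to 138 under adrenaline at ZT0, and all 8 were lower with dexamethasone. Of 9 macrophage markers 5 were lower at ZT0 and 7 at ZT12, and none higher. Of 8 fibroblast markers 7 were lower at ZT0 and 4 at ZT12, with Col1a1 and Col3a1 listed at 0 throughout under dexamethasone, and Col1a2 at ZT0. The shares of all genes lower with dexamethasone than adrenaline at each time are those given above for the cAMP and acute phase lists. The 8 adipocyte markers summed to 52.0 to 71.0 FPKM under dexamethasone and 76.7 to 88.5 under adrenaline at ZT0. In WT ADX against WT sham at ZT12, 7 of 8 endothelial markers were higher (186 to 198 against 121 to 131 FPKM), as were 6 at ZT0 (189 to 218 against 142 to 151). The share of all genes higher in that comparison is not given here. In RE-RE sham against WT sham, 5 of 8 fibroblast markers were higher at ZT0 (242 to 554 against 92.6 to 257 FPKM), where 13.3% of all genes were higher. At ZT12, 6 were higher (308 to 344 against 92.2 to 169), where 10.1% of all genes were. None was lower at either time. In RE-RE ADX at ZT12 the fibroblast markers summed to 419 to 542 FPKM, and in WT ADX at ZT12 to 99.3 to 208. The 5 satellite cell markers in the table summed to 12.5 to 13.8 FPKM under dexamethasone at ZT12, where Cebpb and Cebpd were highest, and to at most 11.9 in the other groups. No neutrophil marker of 8 was in the table. The part of these shifts in the levels of the 4 genes was not tested, and in bulk muscle fewer cells of a type and less RNA per cell cannot be told apart.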

How the data were processed

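RNA of 47 tibialis anterior samples was sequenced as 60 bp single-end reads, 25 M per sample on average, per the labels' protocols. Per the submitters' processing notes the tools named were edgeR 3.30.0, HISAT2 2.1.0 and featureCounts 1.6.2 on build GRCm38, besides Trim Galore 0.5.0 and FastQC 0.11.8; the strand setting and the steps that made many values other than scaled reads are not given in the sources used here. The deposited values are log2 of FPKM plus 0.01 for 13500 genes, and no counts were used. FPKM was recovered by undoing that log. Tests used limma 3.58.1 (R 4.3.3, trended variance) on log2(FPKM + 1) over all 12 groups, with 35 residual degrees of freedom, for 12000 genes with at least 1 FPKM in at least 3 libraries. This model gave each gene 1 spread shared by all 12 groups, on which the SE of every contrast rests. For Mt2 with time under adrenaline the SE was 0.58 in this model, and 0.042 when just those groups were fitted. P-values were adjusted by Benjamini-Hochberg within each of 28 contrasts, with a threshold of 0.05, and the code was tested on simulated data. Groups follow the labels. Depth was recovered from 68 genes listed at 0 in at least 30 libraries, where 99.8% of low values were whole reads within 0.05. Alternatives were the deposited offset, an offset of 0.1, no filter, equal library medians, only the groups compared, age as a covariate, a replicate block, leaving out each library, and, chosen after seeing the data, leaving out 7 libraries. The 4 genes and all lists were chosen with earlier results of these data known. Genes named from a list were taken from the 3 with the smallest adjusted p per list in each of 4 main contrasts, plus fixed context genes and the 5 most alike per gene, of which 1 is not reported here. Values were handled with Python 3.11.15, pandas 2.3.3 and scipy 1.17.1.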

Additional observations from a re-analysis of the deposited data

Results flagged for a closer look

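In 11 of 39 sets of 4 libraries and a gene, 1 library lay far from the other 3 by Dixon's test, which chance does in about 1 in 20 groups. Many of these sets hold zeros, where any library above 0 is far from the rest. RE-RE ADX replicate 4 at ZT0 was such a library for 3 genes: Cebpd at 6.41 FPKM was low, and Mt1 at 20.9 FPKM and Mt2 at 23.05 FPKM were high. In RE-RE ADX at ZT12, Cebpd stood at 17.2 FPKM in replicate 8 and Mt2 at 5.84 FPKM in replicate 5. In RE-RE sham at ZT0, Mt1 stood at 9.58 FPKM in replicate 3. In WT sham, the libraries above 0 among zeros were replicate 2 at ZT0 for Cebpd (0.99 FPKM), replicate 4 at ZT0 for Mt1 (0.636 FPKM) and replicate 8 at ZT12 for Mt2 (1.53 FPKM). Under injection, Cebpb stood at 29.7 FPKM in WT ADX+ADR replicate 2 and Mt1 at 249 FPKM in WT ADX+DEX replicate 4, both at ZT0. RE-RE ADX replicates 4 and 5 and WT sham replicates 4 and 8 are also among the 7 libraries that shared at most 1 exact low value with their group.

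The change from ZT0 to ZT12 differed between WT ADX and WT sham for Cebpd (limma adjusted p = 0.000576) and Mt1 (0.0198), and between RE-RE ADX and RE-RE sham for Mt2 (0.0481). In each, at least 1 group was listed at 0 throughout, so no size is given. Mt2 was not called there with age as a covariate, the other offsets, no filter, a replicate block or only the groups compared. For Mt1 these were both WT ADX groups, so the difference is the change in WT sham alone.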

How the results depend on the processing

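Of the 4 genes, the count called by limma changed by over 1.5 times as follows. When just the groups compared were fitted, it went from 1 to 0 for time in WT ADX, 1 to 4 in WT ADX+ADR and 2 to 4 in WT ADX+DEX, from 1 to 0 for wild-type adrenalectomy at ZT0, from 1 to 0 for RE-RE ADX against sham at each time, from 1 to 2 for WT ADX+ADR against WT sham at ZT12 and from 2 to 0 for RE-RE against WT sham at ZT0. For differences between time effects that model gave 2 for adrenaline and 3 for dexamethasone against WT ADX, 2 for dexamethasone against adrenaline, 1 for the genotypes and 0 for RE-RE adrenalectomy. With age as a covariate the counts were 0 for wild-type adrenalectomy at ZT0 and for RE-RE ADX against sham at ZT12, 2 for WT ADX+ADR and for RE-RE sham against WT sham at ZT12, and, between time effects, 0, 2 and 1 for RE-RE adrenalectomy, dexamethasone against WT ADX and the genotypes. The deposited offset gave 0 for time in WT ADX+DEX, 2 and 1 for dexamethasone against adrenaline at ZT0 and ZT12, 0 for RE-RE adrenalectomy and 0 of 3 correlated pairs, and an offset of 0.1 gave 0 for the first and for RE-RE adrenalectomy, as did no filter for the latter. Without the 7 libraries the counts were 2 for time in WT ADX+ADR, 0 for both adrenalectomy effects at ZT0, and 1, 2, 1 and 1 between time effects (adrenaline and dexamethasone against WT ADX, dexamethasone against adrenaline, the genotypes). The cause of these changes was not tested. Leaving out 1 library gave 0 to 3 for RE-RE ADX against sham at ZT0, 0 to 1 for WT ADX at ZT0, 1 for time in WT ADX+DEX, 1 to 2 for WT ADX+ADR against WT sham at ZT12, 0 to 2 for RE-RE adrenalectomy, and 0 to 1 for dexamethasone against WT ADX and for the genotypes. Equal library medians changed none of 28 counts. No called change turned its sign, but 7 of 77 changes, none called, did under some alternative; that of Mt2 with time in RE-RE ADX went from -0.45 to 0.71 with age as a covariate and 0.69 without RE-RE ADX replicate 4.

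Replicate numbers gave no clear sign of pairing: deviations of same-numbered libraries correlated at -0.215 to 0.363 over 58 pairs, 13 of them over 0.1. Groups this small cannot exclude a pairing. A replicate block gave 0 for both adrenalectomy effects at ZT0, for RE-RE ADX against sham at ZT12 and for RE-RE against WT sham at ZT0, 2 for WT ADX+ADR against WT sham at ZT12, and 1, 0, 1, 2 and 3 between time effects (WT adrenalectomy, RE-RE adrenalectomy, adrenaline and dexamethasone against WT ADX, dexamethasone against adrenaline).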
